A study of Mus musculus with 24 samples.

Results

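The control small RNAs of the study are 6 non-miRNA assays that were measured beside the miRNAs on the TaqMan cards: MammU6, snoRNA135, snoRNA202, snoRNA429, U87 and Y1. They were taken from the deposited table by assay name, and they make up 6 of its 591 assays and 383 of its 8969 wells. Total RNA came from 12 replicates in 4 groups of 3. L-1210 is a mouse lymphocytic leukaemia line and M1 a mouse myeloid leukaemia line, both grown in suspension. PYS is a mouse teratocarcinoma line that grows as an adherent, epithelial-like layer. CT-BM is mouse bone marrow flushed from femur and tibia, and so a mixed tissue rather than 1 cell type, although its growth entry describes cells in suspension culture and the series title speaks of stem cells. All 3 lines were collected at passage 3. No group received a treatment, and each line stands for its tumour type alone. The labels do not say whether the replicates came from separate cultures or animals, so the p-values reflect the spread of these runs only, part or all of which may be technical. Each replicate was run on a card A and a card B, which gave 24 card runs. Card A carried 5 of the controls and card B all 6, snoRNA429 being on card B alone, so the 6 assays gave 11 combinations of control and card.

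The authors scaled their miRNA values to MammU6, snoRNA135 and snoRNA202, per the series' design text. Such scaling assumes that a control RNA is present in the same amount in every sample. The 6 RNAs are housekeeping molecules of different classes. U6 is the small nuclear RNA at the catalytic centre of the spliceosome and is transcribed by RNA polymerase III. Small nucleolar RNAs of the C/D box class guide methylation of the ribose in ribosomal RNA, are released from introns of host genes, and depend on the transcription and splicing of those hosts. Y1 is a small RNA polymerase III transcript that is bound by the Ro60 protein and has been tied to RNA quality control and to DNA replication.

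U87 is Snord87, a 74-base gene at chr1:9942470-9942543 of assembly GRCm38.p6, inside the noncoding host gene Snhg6 and within the span of Mcmdc2. snoRNA135 is listed as a synonym of Snord65, 57 bases at chr11:62604530-62604586, inside the transcript 2410006H16Rik. The gene table has no entry under the names snoRNA202 and snoRNA429. Their numbers match the mouse clones of Snord68, 48 bases at chr8:123103058-123103105 inside the ribosomal protein gene Rpl13, and of Snord100, 68 bases at chr10:23785754-23785821 inside Rps12. Y1 is Rny1, 111 bases at chr6:47788070-47788180, with no gene around it. MammU6 has no single gene in the table.

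The measurement is the Ct, the PCR cycle at which a well crosses the detection threshold. A lower Ct means more template, and 1 cycle is close to a 2-fold difference. A Ct over 35 and an undetermined well were counted as not detected and set to 35. A raw Ct also moves with the RNA that entered the card run, so each control was also read relative to the mean of the common miRNAs, the miRNA assays of its card detected in all 12 replicates (119 on card A and 68 on card B). On card A these miRNAs averaged a Ct of 22.9 in L-1210, 20.9 in M1, 22.7 in PYS and 22.7 in CT-BM, so the M1 runs were earlier as a whole. On card B their means were 23.0, 22.2, 22.5 and 23.8 in the same order of groups. Each of the 24 wells of the plant miRNA assay ath-miR159a, a negative control, stayed undetermined. Groups were compared with limma on the negative Ct of all assays of both cards. A difference was called at an adjusted p under 0.05 and a size of at least 1 cycle. Positive differences mean an earlier Ct, hence a higher level, in the group named first. In total RNA from whole cells, fewer cells of a type and less of an RNA per cell cannot be told apart.

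The cell type markers set PYS apart from the other groups, and the only lymphocyte marker was late in L-1210. The blood miRNA miR-142-3p had a mean Ct of 17.8 in L-1210, 17.5 in M1, 31.99 in PYS and 17.5 in CT-BM. The myeloid miR-223 was at 26.2 in L-1210, 14.7 in M1, 31.3 in PYS and 13.5 in CT-BM. The lymphocyte marker miR-150 was later in the lymphocytic line L-1210 (26.3) than in M1 (19.9), PYS (25.0) and CT-BM (16.6). All 6 embryonic markers were detected in every PYS replicate, at mean Ct between 15.7 and 19.97. Outside PYS, miR-294 was detected in all 3 CT-BM replicates at 28.0, miR-291a-3p was not detected, and the other 4 were undetected or had group means of 32.7 or later. Of the 2 erythroid and 3 stromal markers, miR-486, miR-143 and miR-214 were not detected in the lines. The erythroid miR-451 was detected in all PYS replicates (27.4) and in 1 of the 2 M1 replicates with a value, and the stromal miR-145 in all PYS replicates (27.7) and in both M1 replicates with a value (26.4). Both erythroid markers were detected in all 3 CT-BM replicates, miR-451 at a mean Ct of 20.8 and miR-486 at 24.8. The 3 stromal markers were detected in every CT-BM replicate with a value, miR-143 at 24.7, miR-145 at 21.2 and miR-214 at 23.7. The erythroid and stromal markers were earliest in CT-BM, whereas Y1 and the snoRNAs below had their latest group means there. The part of these cell types in the differences was not tested.

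**Figure D1:**
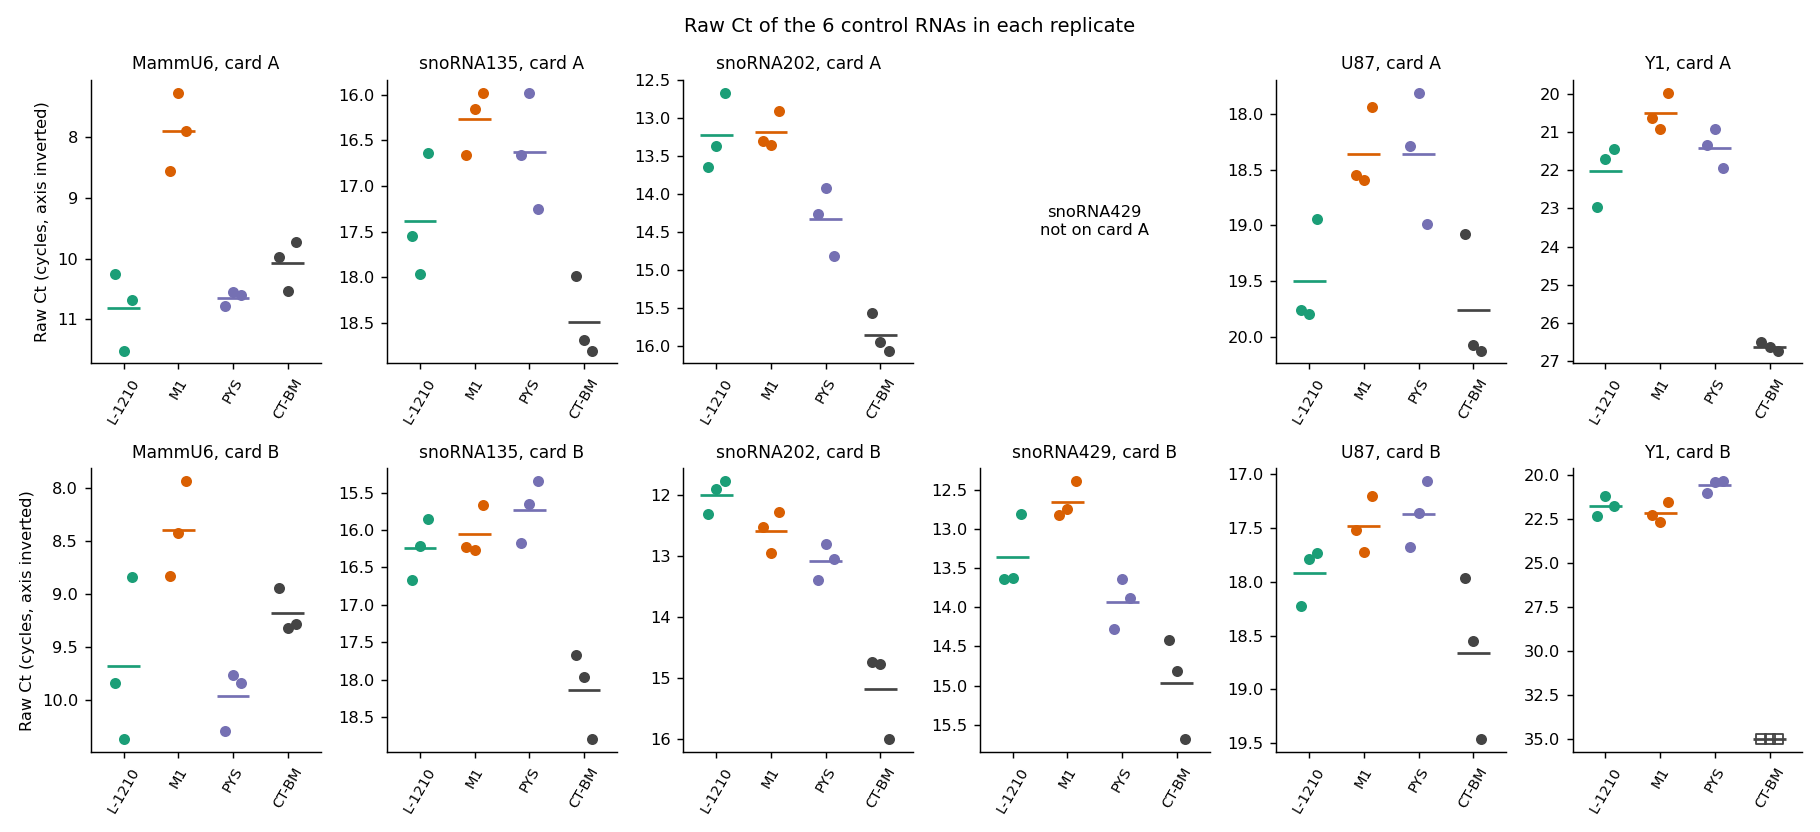
Raw Ct in PCR cycles (vertical axis, inverted so that higher points mean more template) of each control RNA on card A (top) and card B (bottom) by group. Each point is a replicate, lines are means of 3, and open squares at 35 are replicates in which no well amplified. CT-BM lies lowest for Y1 and the snoRNAs apart from U87, where it overlaps L-1210, and MammU6 follows another order.

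MammU6, the U6 assay, was earliest in M1 and did not separate the other 3 groups by the call rule. On card A its raw Ct was 10.3, 11.5 and 10.7 in L-1210, 8.55, 7.27 and 7.90 in M1, 10.8, 10.6 and 10.6 in PYS, and 9.97, 10.5 and 9.73 in CT-BM. Every M1 value was lower than every other value. On card B the values were 9.83, 10.4 and 8.84 in L-1210, 8.83, 8.42 and 7.94 in M1, 10.3, 9.76 and 9.84 in PYS, and 8.94, 9.32 and 9.28 in CT-BM. M1 was again the earliest group, though its latest replicate (8.83) all but met the earliest of L-1210 (8.84). On card A, MammU6 was higher in M1 than in CT-BM by 2.17 ± 0.40 cycles (SE, n = 3 each; limma adjusted p = 0.00011). The card B difference of 0.78 ± 0.39 cycles was not called (limma adjusted p = 0.0704). L-1210 differed from CT-BM by -0.74 cycles on card A and -0.50 on card B, and PYS by -0.57 and -0.78, none of them called. Without M1 replicate 1 the M1 difference on card B was called at 1.00 cycles, and without L-1210 replicate 1 that of L-1210 on card A was called at -1.02.

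The M1 value on card A rested partly on 2 wells. M1 replicate 2 had MammU6 wells at Ct 5.75, 5.73, 8.96 and 8.64, an SD of 1.77 cycles, where the median SD over the 12 card A runs was 0.302. In the order of the table the wells form a pair at 5.74 and a pair at 8.80. Without the 2 earliest wells, a choice made after seeing the data, M1 exceeded CT-BM by 1.66 cycles in place of 2.17, and the call stayed (limma adjusted p = 0.000707). Relative to the common miRNAs, leaving out the same wells turned the M1 difference from CT-BM to -0.14 cycles, where all wells gave 0.37, neither of them called.

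**Figure D2:**
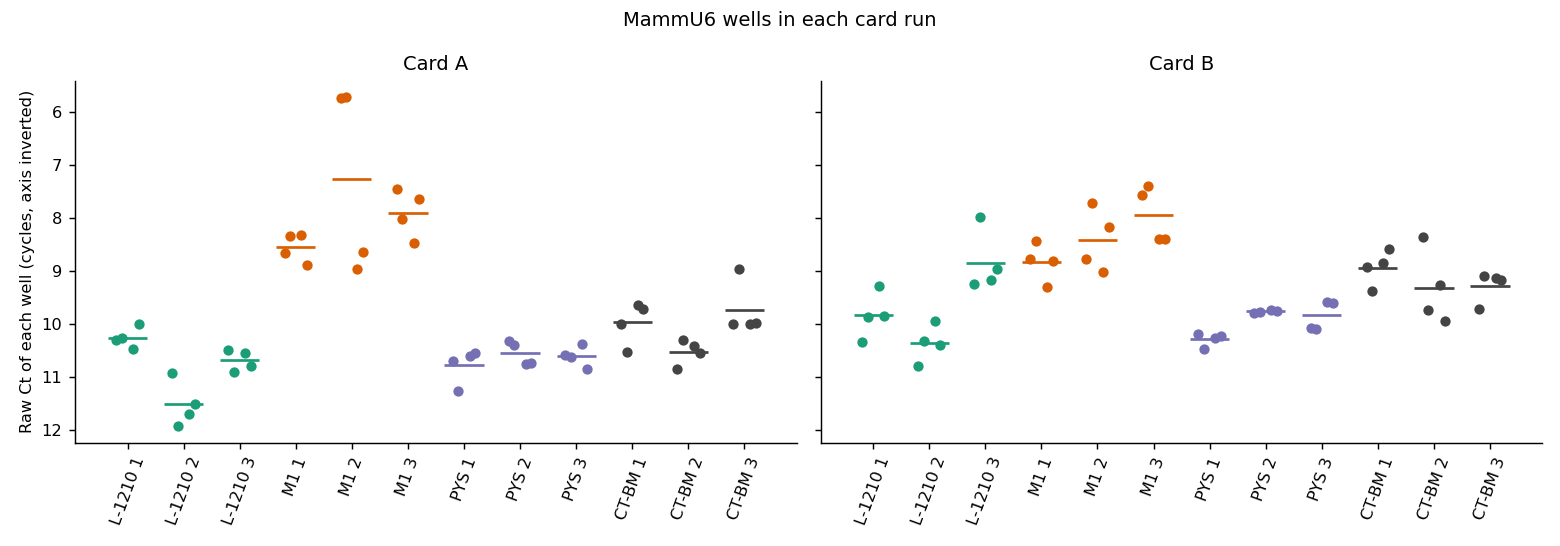
Raw Ct (PCR cycles, axis inverted) of the 4 MammU6 wells of every card run, card A left and card B right. Points are wells and lines their means. The first pair of wells of M1 replicate 2 on card A lies at 5.74, and its other pair at 8.80.

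Repeat wells of MammU6 scattered more than those of the snoRNAs. On card B, where every control had up to 4 wells, the median SD between wells was 0.350 cycles for MammU6 and 0.282 for Y1. It was 0.178 for U87, 0.143 for snoRNA135, 0.113 for snoRNA429 and 0.0682 for snoRNA202, against 0.108 over 849 sets of miRNA wells on that card. The MammU6 median SD exceeded those of the other 5 controls, and only snoRNA202 was below the miRNA median. A set of miRNA wells needed only 2 amplified wells, so its SD and that of 4 control wells are not strictly alike. The Ct of MammU6 on card B minus that on card A averaged -1.14 in L-1210, 0.49 in M1, -0.68 in PYS and -0.90 in CT-BM. The shifts passed a test among the groups (exact permutation test over 12 replicates, adjusted p = 0.0426 over 4 controls), but this did not hold up. M1 replicate 2 had a shift of 1.15, and of -0.38 without its 2 earliest card A wells, which brings the M1 mean to -0.02 and the adjusted p to 0.26 (exact permutation test). The call was also lost in 10 of the 12 tests that left out a replicate. With all wells the same test gave adjusted p = 0.26 for snoRNA135, 0.26 for snoRNA202 and 0.386 for U87, which does not show that they shifted alike.

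Y1 had the widest range of the 6. On card A its raw Ct was 23.0, 21.7 and 21.4 in L-1210, 20.6, 20.9 and 20.0 in M1, 21.3, 20.9 and 21.96 in PYS, and 26.5, 26.6 and 26.7 in CT-BM. The 9 values of the lines lay between 20.0 and 23.0, and the CT-BM replicates were all later. Against CT-BM, L-1210 had 4.58 ± 0.42 cycles more Y1 (limma adjusted p = 8.98e-08), M1 6.10 ± 0.42 (limma adjusted p = 1.82e-09) and PYS 5.20 ± 0.41 (limma adjusted p = 7.75e-08; SE, n = 3 each). On card A these differences correspond to 23.9-fold, 68.7-fold and 36.8-fold if each cycle doubles the product.

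On card B, Y1 had a Ct of 22.3, 21.2 and 21.7 in L-1210, 22.3, 22.7 and 21.5 in M1, and 21.01, 20.4 and 20.4 in PYS. The order of the lines differed between the cards. PYS minus M1 was -0.90 cycles on card A, not called, and 1.58 on card B, called. L-1210 minus M1 was -1.52 on card A, called, and 0.41 on card B, not called. None of its 11 CT-BM wells amplified. Set against the limit of 35, the computed difference was 13.2 cycles for L-1210, 12.8 for M1 and 14.4 for PYS. Those values lie far beyond the differences that the same RNA showed on card A, so they give no minimum for the excess of Y1. Of 93 miRNAs detected in all 3 CT-BM replicates on card B, 27 had a Ct between 26 and 35 in all 3. Why Y1 did not amplify there was not tested. Y1 passed the detection filter on card B through the lines alone and therefore had to differ there.

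On raw Ct, snoRNA202, snoRNA135 and snoRNA429 were called higher in each line than in CT-BM, and U87 in M1 and PYS but not in L-1210. Of the 4 snoRNAs, snoRNA202 was furthest from CT-BM in the leukaemia lines. On card B, snoRNA202 had a Ct of 12.3, 11.9 and 11.8 in L-1210, 12.5, 12.9 and 12.3 in M1, 13.4, 12.8 and 13.05 in PYS, and 14.7, 14.8 and 16.0 in CT-BM. On card A its means were 13.2 in L-1210, 13.2 in M1, 14.3 in PYS and 15.9 in CT-BM. No line replicate overlapped CT-BM on either card. L-1210 exceeded CT-BM by 2.64 (card A) and 3.18 (card B) cycles, M1 by 2.67 and 2.59, and PYS by 1.53 and 2.09, all called (limma adjusted p at most 0.000635). Between the lines, PYS was below L-1210 by -1.10 and -1.09 cycles. Both of those calls were lost without L-1210 replicate 3 (-0.82 and -0.98), that of card A also without PYS replicate 3 (-0.86) and that of card B without PYS replicate 1 (-0.93).

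snoRNA135 was likewise higher in every line. Its Ct on card B was 16.7, 16.2 and 15.9 in L-1210, 16.2, 16.3 and 15.7 in M1, 16.2, 15.7 and 15.3 in PYS, and 17.7, 18.0 and 18.8 in CT-BM. Its card A means were 17.4 in L-1210, 16.3 in M1, 16.6 in PYS and 18.5 in CT-BM. No line replicate was as late as a CT-BM replicate on either card. L-1210 exceeded CT-BM by 1.11 (card A) and 1.90 (card B) cycles, M1 by 2.23 and 2.10, and PYS by 1.86 and 2.42, all called (limma adjusted p at most 0.0269). The L-1210 call on card A was lost without L-1210 replicate 3 (0.74), CT-BM replicate 2 (1.01) or CT-BM replicate 3 (0.96).

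snoRNA429, measured on card B alone, had a Ct of 13.6, 13.6 and 12.8 in L-1210, 12.8, 12.7 and 12.4 in M1, 14.3, 13.6 and 13.9 in PYS, and 14.4, 14.8 and 15.7 in CT-BM. M1 was earliest, and the CT-BM replicates were later than all others. Its excess over CT-BM was 1.62 ± 0.37 cycles for L-1210, 2.32 ± 0.37 for M1 and 1.04 ± 0.36 for PYS (limma adjusted p = 0.00118, 3.16e-05 and 0.0151). The PYS call was lost without PYS replicate 2 (0.90) or CT-BM replicate 3 (0.69).

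U87 moved least among the snoRNAs. On card B its Ct was 18.2, 17.8 and 17.7 in L-1210, 17.5, 17.7 and 17.2 in M1, 17.7, 17.4 and 17.1 in PYS, and 18.0, 18.6 and 19.5 in CT-BM. L-1210 overlapped CT-BM, while M1 and PYS had lower Ct in every replicate. Its card A means were 19.5 in L-1210, 18.4 in M1, 18.4 in PYS and 19.8 in CT-BM, and L-1210 again overlapped CT-BM. U87 was higher than in CT-BM by 1.40 (card A) and 1.18 (card B) cycles in M1 and by 1.40 and 1.29 in PYS, all called (limma adjusted p at most 0.00845). L-1210 differed by 0.26 and 0.74 cycles, and neither was called. CT-BM replicate 3 was the latest of its group on card B for each of the 4 snoRNAs. Without it the U87 calls on that card were lost (0.78 in M1, 0.89 in PYS), and without CT-BM replicate 1 the L-1210 difference on card B was called at 1.09.

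Counts against CT-BM leave out Y1 on card B, whose call the filter fixed, and cover the 10 combinations detected in all 12 replicates. On raw Ct, 6 of the 10 were higher in L-1210 than in CT-BM and 0 lower. Of all 344 assays tested 39.0% were higher and 29.7% lower, and of the 197 detected in all 12 replicates 42.6% and 15.2%. In M1, 9 were higher and 0 lower, against 56.8% and 28.3% of 336 assays, and 74.6% and 9.14% of those detected throughout. In PYS, 8 were higher and 0 lower, against 52.0% and 32.7% of 373 assays, and 53.8% and 25.4% of those detected throughout. The median difference over the 10 combinations was 1.36, 2.20 and 1.47 cycles in L-1210, M1 and PYS, beside 0.85, 2.28 and 1.28 over the assays detected throughout, so in M1 the controls lay no higher than those assays. The counts between lines cover all 11 combinations. On raw Ct, 0 were higher and 5 lower in L-1210 than in M1, with 19.2% and 51.4% of 317 assays. In PYS against L-1210, 2 were higher and 2 lower, with 41.7% and 27.1% of 362. In PYS against M1, 1 was higher and 4 were lower, with 34.4% and 41.8% of 352. The 5 lower calls in L-1210 against M1 fell to 2 without L-1210 replicate 2 and to 3 without L-1210 replicate 1 or M1 replicate 3. The 4 calls of PYS against L-1210 fell to 2 without L-1210 replicate 1 or PYS replicate 1.

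Set against the common miRNAs of the same card run, the called differences from CT-BM no longer all had the same direction. Centring lowered the median difference over all assays against CT-BM to 0.16 cycles for L-1210, -0.07 for M1 and 0.76 for PYS. Of the 10 combinations, 5 were higher and 1 was lower in L-1210 than in CT-BM. That compares with 37.2% higher and 31.7% lower among all assays tested, and 39.6% and 17.8% among those detected throughout. In M1, Y1 on card A alone was called, 1 higher and 0 lower of 10, against 31.5% and 39.0% of all assays and 35.5% and 21.8% of those detected throughout. Without CT-BM replicate 2, snoRNA202 on card B was also called higher in M1 (1.05) and MammU6 on card B lower (-1.02). In PYS 5 were higher and 1 was lower, against 45.8% and 34.9%, and 42.6% and 28.9% of those detected throughout. Between the lines on this scale, L-1210 had 3 combinations higher and 0 lower than M1, against 34.7% and 19.6% of all assays tested. PYS had 0 higher and 3 lower than L-1210, against 37.6% and 30.4%, and 3 higher and 1 lower than M1, against 46.6% and 26.1%. Against CT-BM the 10 combinations had a median of 0.998, 0.44 and 0.95 cycles in L-1210, M1 and PYS, beside 0.59, 0.52 and 0.71 over the assays detected throughout.

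**Figure D3:**
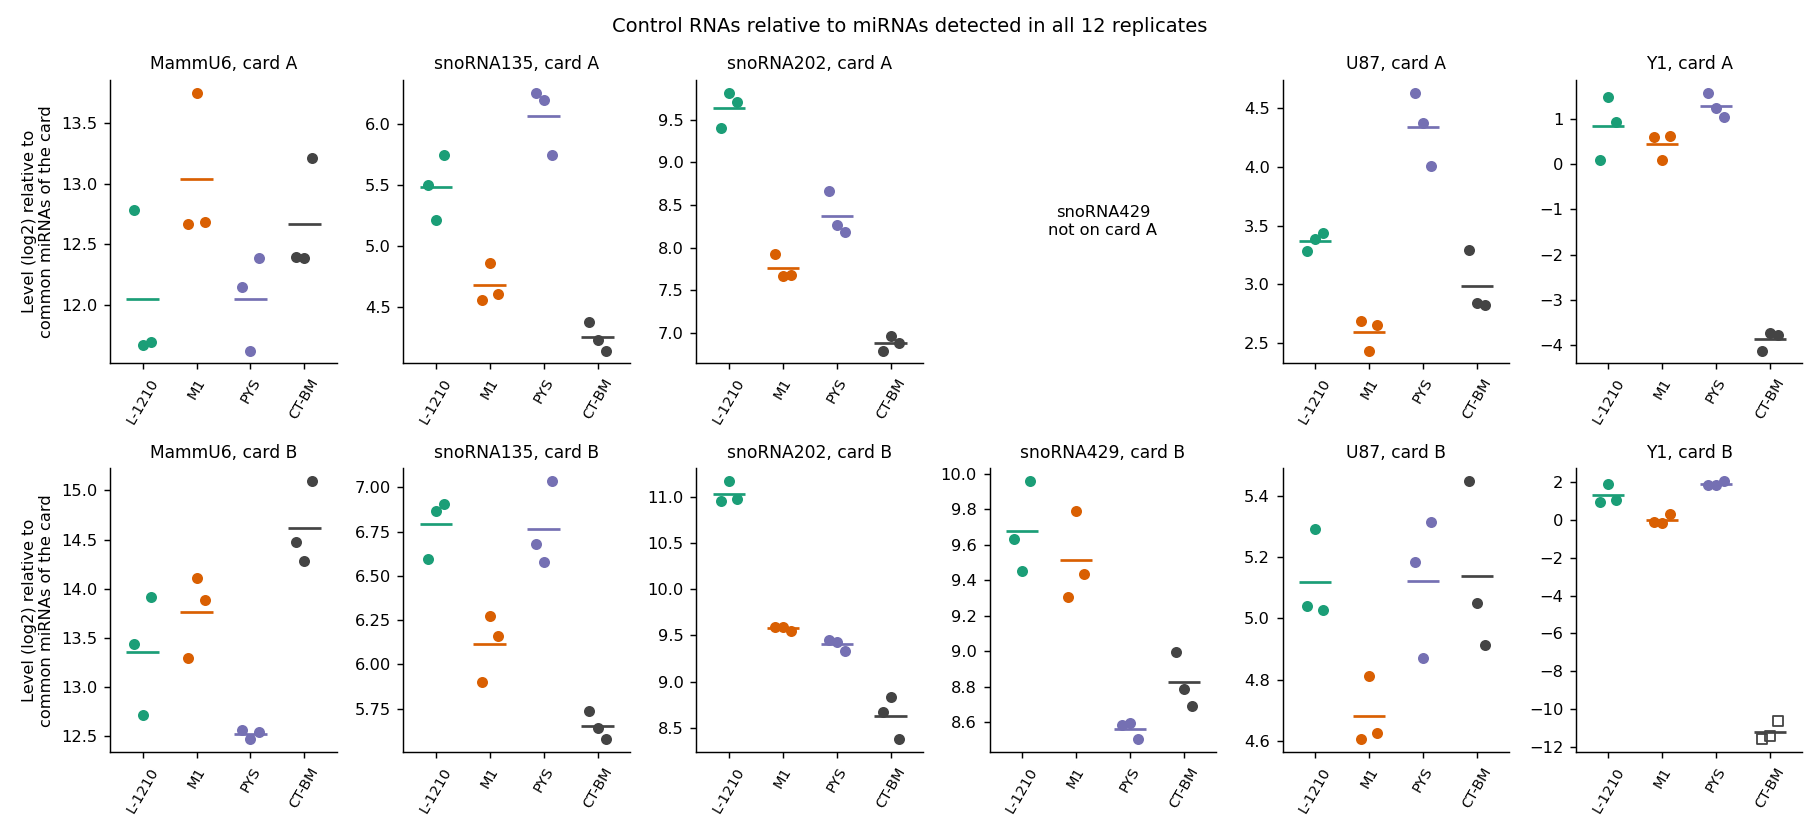
Level of each control RNA in log2 units (cycles) relative to the mean of the common miRNAs of the same card run, card A (top) and card B (bottom). Points are replicates, lines are means of 3, and open squares mark Y1 replicates set to the limit. snoRNA202 is highest in L-1210 on both cards and MammU6 on card B is highest in CT-BM.

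On that scale Y1 on card A was 4.70, 4.31 and 5.16 cycles higher in L-1210, M1 and PYS than in CT-BM. It remained called with the median of these miRNAs, with quantile normalization and with the mean of MammU6, snoRNA135 and snoRNA202. Over these scalings the smallest value was 3.58 cycles (L-1210, mean of the 3 controls) and the largest 5.83 (M1, quantile normalization). Scaling to a single control is not among them. snoRNA202 was 2.76 ± 0.18 (card A) and 2.41 ± 0.16 (card B) cycles higher in L-1210. These calls also stood under the same other scalings, between 1.43 and 2.66 cycles. Relative to Y1 on card A, however, snoRNA202 was lower in L-1210 than in CT-BM. There the Ct of Y1 exceeded that of snoRNA202 by 8.81 cycles in L-1210 and 10.8 in CT-BM. Relative to the common miRNAs, snoRNA202 further exceeded the M1 level in L-1210 by 1.88 and 1.46 cycles (limma adjusted p = 1.89e-06 and 5.38e-06). On card B quantile normalization gave 0.21 and scaling to the 3 design controls, among them snoRNA202 itself, 0.88, neither called. In M1, snoRNA202 differed from CT-BM by 0.88 (card A) and 0.95 (card B) cycles, not called. The median of the common miRNAs gave 1.09 on card A and quantile normalization 1.22 on card B, both called, while quantile normalization on card A gave 0.10 and the median on card B 0.41. In PYS, snoRNA202 was 1.49 cycles above CT-BM on card A and 0.78, not called, on card B. There quantile normalization gave 1.44, called (limma adjusted p = 9.11e-05), and the median -0.20, not called. The card A call of PYS was lost with quantile normalization (0.65) and the 3 design controls, snoRNA202 among them (0.59).

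snoRNA135 was 1.24 (card A) and 1.14 (card B) cycles above CT-BM in L-1210 and 1.82 and 1.11 in PYS (limma adjusted p at most 0.000119). Its M1 differences of 0.43 and 0.46 were not called. The card B call of PYS was lost without PYS replicate 3 (0.98) and fell to 0.14 when centred on the median of the common miRNAs. That of L-1210 on card B fell to 0.94 with the median and 0.71 with quantile normalization. Scaled to the 3 design controls, among them snoRNA135 itself, the L-1210 differences were 0.11 and 0.37 and the PYS differences 0.92 and 1.18, the last alone called. snoRNA429 was 0.86 higher in L-1210, 0.69 higher in M1 and 0.26 cycles lower in PYS than in CT-BM, none of them called. With the median, snoRNA429 in PYS was called lower, at -1.24 cycles, while quantile normalization gave 0.02.

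MammU6 on card B was the control called lower in the lines, by -1.26 ± 0.32 cycles in L-1210 and -2.09 ± 0.32 in PYS (limma adjusted p = 0.00351 and 5.65e-05). M1 differed by -0.85 cycles, not called, and by -1.40 with the median, -1.04 with the 3 design controls, -1.03 without M1 replicate 2 or -1.02 without CT-BM replicate 2, all 4 called. The L-1210 call was lost without L-1210 replicate 2 (-0.94). Quantile normalization gives MammU6 the same rank in every run and so a difference of 0 for each line. On card A the differences of MammU6 were -0.62, 0.37 and -0.61 cycles in L-1210, M1 and PYS, none called, and the lines overlapped CT-BM. Scaled to the 3 design controls, MammU6 among them, those of L-1210 (-1.74) and PYS (-1.51) were called and that of M1 turned to -0.19.

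U87 on card B lay closest to the common miRNAs. It differed from CT-BM by -0.02 cycles in L-1210 (95% interval -0.44 to 0.40), -0.46 in M1 (-0.88 to -0.04) and -0.01 in PYS (-0.44 to 0.41). With the median of the same miRNAs the values were -0.22, -1.002 and -0.99, and that of M1 was called. On card A, U87 was 1.35 cycles higher in PYS (limma adjusted p = 4.34e-05), a call lost with quantile normalization (0.55) or the 3 design controls (0.46), and it differed by 0.38 in L-1210 and -0.40 in M1, not called. Scaled to the 3 design controls, the L-1210 value turned to -0.74, under the minimum of 1 cycle.

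Because the choice of scale decides several of these calls, the controls were also compared with each other. The Ct of a control minus that of another in the same card run is unchanged by any scaling that shifts the whole run equally. Quantile normalization is not of that kind. Nor does the difference depend on the RNA loaded if both assays amplify with the same efficiency. Of the 25 possible pairs within a card, the 5 with Y1 on card B were left out and 20 were tested. All 20 differed among the 4 groups (exact permutation test over 15400 divisions of the 12 replicates, adjusted p 0.000433 to 0.00987 over the 20 pairs). Pairs that share a control are not independent. The share of miRNA pairs that would pass the same test was not computed, so the count cannot be called particular to the controls. The smallest p that this test can give, 6.49e-05, was reached by 3 pairs. The group means of a pair spanned 0.85 cycles for snoRNA135 and U87 on card A up to 5.77 cycles for MammU6 and Y1 on card A.

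The pair of snoRNA202 and U87 ordered the groups alike on both cards. On card B the Ct of U87 exceeded that of snoRNA202 by 5.92 ± 0.04 cycles in L-1210, 4.90 ± 0.10 in M1, 4.28 ± 0.27 in PYS and 3.49 ± 0.28 in CT-BM (SD, n = 3 each). On card A the differences were 6.27 ± 0.16, 5.17 ± 0.12, 4.03 ± 0.14 and 3.90 ± 0.34 in the same groups. L-1210 had the widest gap and CT-BM the narrowest, and only PYS and CT-BM on card A lay within their spread of each other. Between snoRNA135 and U87 the gap was 2.12, 2.09, 1.73 and 1.27 cycles in L-1210, M1, PYS and CT-BM on card A. It was 1.67, 1.43, 1.64 and 0.51 on card B, so CT-BM had the smallest gap on both.

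The gaps between MammU6 and the snoRNAs changed as well. On card B the Ct of snoRNA202 exceeded that of MammU6 by 2.32 ± 0.71 cycles in L-1210, 4.19 ± 0.43 in M1, 3.12 ± 0.08 in PYS and 5.99 ± 0.65 in CT-BM. The same gap for snoRNA135 was 6.56 ± 0.63, 7.65 ± 0.23, 5.76 ± 0.22 and 8.96 ± 0.48. CT-BM thus had the widest gap in both pairs on card B, and the SD within a group reached 0.71 cycles there. On card A the gaps of M1 and CT-BM lay within their spread. They were 5.28 ± 0.70 and 5.78 ± 0.48 for snoRNA202, and 8.36 ± 0.46 and 8.41 ± 0.57 for snoRNA135. Without the 2 earliest wells of M1 replicate 2, those of M1 were 4.77 and 7.85. For U87 on card A, M1 had the widest gap, 10.4 against 9.68 in CT-BM, and 9.94 without those wells. The Ct of Y1 exceeded that of snoRNA202 on card A by 8.81 ± 0.49 in L-1210, 7.32 ± 0.26 in M1, 7.08 ± 0.06 in PYS and 10.8 ± 0.14 in CT-BM. M1 and PYS were within their spread in that pair, and CT-BM stood apart.

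**Figure D4:**
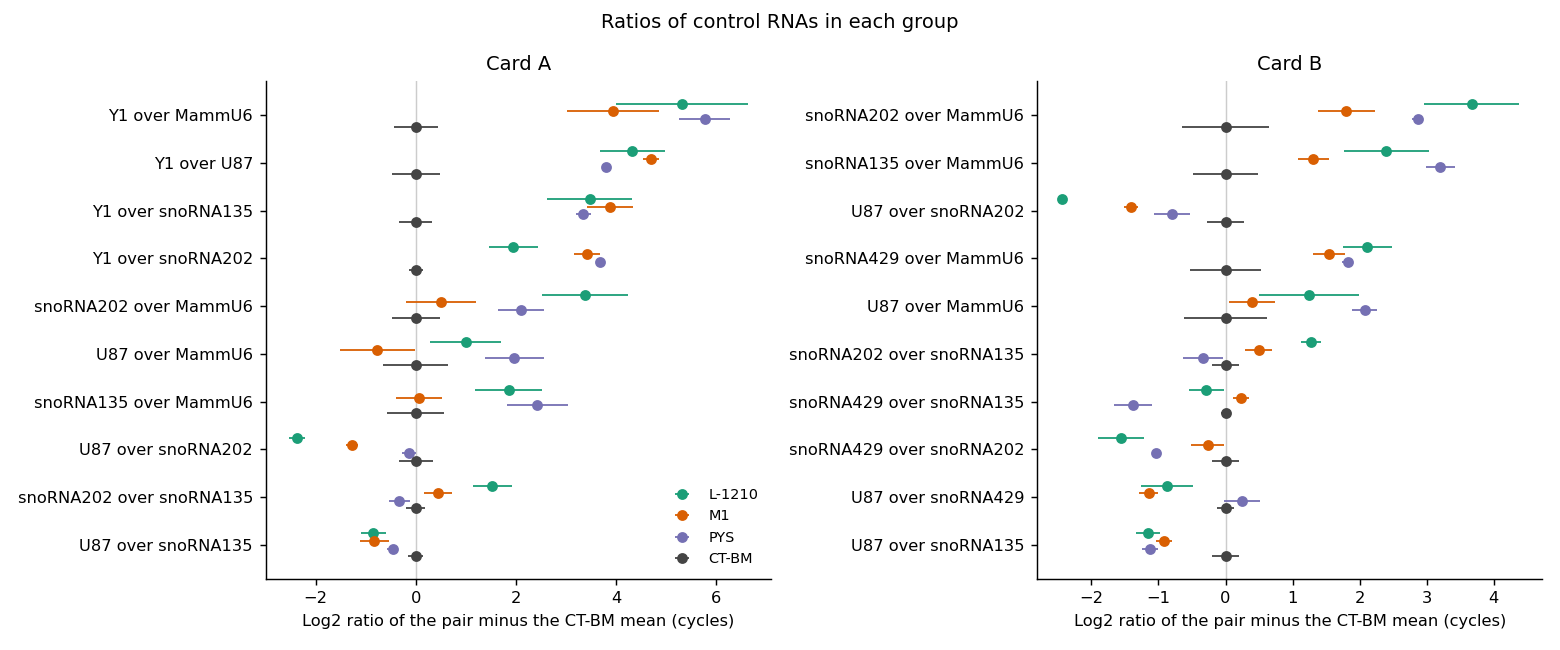
Log2 ratio (cycles) of each pair of control RNAs on card A (left) and card B (right), drawn relative to the CT-BM mean of the pair, which lies at 0. Points are group means of 3 replicates and bars their SD. No pair holds all 4 groups at 0, and the ratio of Y1 over MammU6 on card A reaches furthest from it (5.77 in PYS).

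The spread of each control over the 12 replicates was set beside that of the common miRNAs, both after centring on the mean of those miRNAs. U87 on card B had an SD of 0.266 cycles, and 0 of the 68 common miRNAs had a smaller one. With centring on their median, a choice added after seeing the data, its SD was 0.495 and 7 miRNAs were below it. On card A, U87 had an SD of 0.704, with 21 of 119 miRNAs below. snoRNA429 (0.514) and snoRNA135 (0.521) on card B each had 4 miRNAs below them. The median moved the SD of snoRNA429 to 0.749. MammU6 had 0.637 on card A and 0.866 on card B, snoRNA202 1.06 and 0.919, and snoRNA135 0.758 on card A. Y1 on card A had the widest spread of the 10 combinations detected throughout, 2.19 cycles, with 94 of 119 miRNAs below. The median miRNA had an SD of 1.16 cycles on card A and 1.05 on card B.

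For comparison with the controls, the miRNAs of smallest SD and those that ran most like Y1 were picked out, and the mature sequences of the ones found in RefSeq (GRCm38.p6) are given here. On card A the 5 smallest SDs belonged to miR-30c (0.269), miR-30b (0.358), miR-652 (0.358), miR-30d (0.360) and miR-30e (0.367). On card B they belonged to miR-690 (0.311), miR-26b*, miR-29b*, miR-877* and miR-101b. These were picked as the smallest of 119 and of 68 SDs, so their values are a description. U87 on card B (0.266) lay below the smallest of them on its card. Of 9 miRNAs often used as references, 7 were detected throughout, with SDs between 0.473 (miR-24) and 1.82 (miR-16) and a median of 0.892. Y1 on card A ran most like miR-130b (Pearson r = 0.979 over 12 replicates), miR-671-3p (0.972) and miR-92a (0.956). These r describe 12 points in 4 groups that share the same card runs. The assays miR-30c, miR-30e, miR-130b and miR-92a name no arm and were taken as the 5p, 5p, 3p and 3p arms. Capitals mark the seed, bases 2 to 8, which miR-30c and miR-30e share.
miR-30c: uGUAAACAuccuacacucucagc
miR-30e: uGUAAACAuccuugacuggaag
miR-690: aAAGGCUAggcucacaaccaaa
miR-130b: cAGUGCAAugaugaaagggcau
miR-92a: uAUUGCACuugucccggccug
miR-690 lies at chr16:28599940-28599961, miR-30e at chr4:120772660-120772681 and miR-130b at chr16:17124071-17124092, all on the minus strand.

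For the other controls the likeness to a miRNA was closest between snoRNA135 and miR-362-3p on card A (r = 0.965), U87 and miR-182 on card A (0.951) and snoRNA202 and miR-674* on card B (0.951). snoRNA202 ran most like miR-34b-3p on card A (0.891), and snoRNA135 most like miR-24-2* on card B (0.945). MammU6 was most like miR-339-3p on card A (0.858) and miR-704 on card B (0.890), and snoRNA429 most like rno-miR-7a* (0.882). U87 on card B had no close partner, the highest r being 0.711 with miR-22.

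The choice of control changed the sign of the median miRNA difference. Scaled to Y1 on card A, the median difference of the miRNAs from CT-BM was -4.52 cycles for L-1210, -4.42 for M1 and -4.47 for PYS. Scaled to snoRNA202, the medians were -2.51, -0.96 and -0.80 on card A and -2.45, -1.10 and -0.10 on card B, so that of PYS was near 0 on card B. Scaled to snoRNA135, they were -0.98, -0.51 and -1.13 on card A and -1.17, -0.61 and -0.43 on card B. Scaled to MammU6, they were 0.91, -0.45 and 1.30 on card A and 1.27, 0.70 and 2.77 on card B. U87 gave -0.14, 0.31 and -0.67 on card A and -0.02, 0.31 and 0.70 on card B. snoRNA429 gave -0.89, -0.84 and 0.95 on card B, with PYS on the other side of CT-BM from the leukaemia lines. The 3 design controls together gave -0.87, -0.64 and -0.21 on card A and -0.80, -0.34 and 0.75 on card B.

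The numbers of called miRNAs moved with these medians. In L-1210 on card A, 103 of 224 tested miRNAs were called higher and 69 lower when scaled to MammU6. Scaled to snoRNA202, 29 were higher and 161 lower, and scaled to Y1, 21 and 193. With the 3 design controls the counts were 50 and 107, and with the common miRNAs 88 and 78. In PYS on card B, 79 of 120 were higher and 25 lower with MammU6, 42 and 48 with snoRNA202, and 54 and 38 with the 3 design controls.

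**Figure D5:**
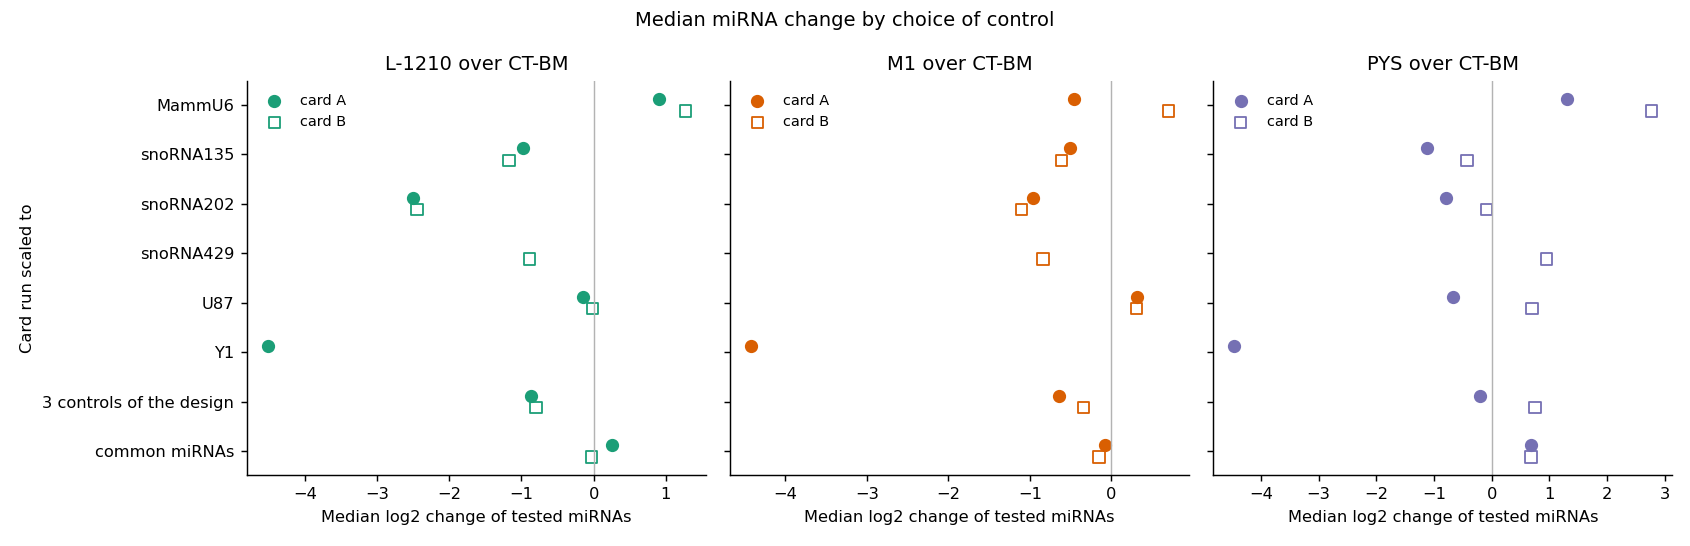
Median log2 change (cycles) of the tested miRNAs of L-1210 (left), M1 (middle) and PYS (right) over CT-BM when each card run is scaled to the control named on the vertical axis. Filled circles are card A and open squares card B. Y1 moves the median below -4 in every line, and MammU6 puts it above 0 except for M1 on card A.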

How the data were processed

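Total RNA of 12 replicates was run on the A and B cards of the TaqMan rodent miRNA set, per the labels' protocols, with reverse transcription, preamplification and 40 cycles on an Applied Biosystems 7900HT. Per the file headers, the deposited values are the raw Ct of each well and the mean Ct of an assay's wells, both in PCR cycles and not scaled to any control. A Ct threshold and software version are not given in the sources used here. The 24 row names were mapped to replicate and card by title, and 0 table rows stayed unmapped. The CT-BM replicate 1 run without a card letter was taken as card A because 367 of its 367 assays lie on that card.

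Undetermined wells (48.3% of all) and 15 wells over Ct 35 were set to 35. Repeat wells were averaged, giving 1 value per assay, card and replicate. Card runs held 367 to 380 wells, and no read depth applies, so replicate and well spread set the precision. The linear models were limma's (version 3.58.1, under R 4.3.3; lmFit, eBayes, 4 group means, all 12 replicates) on the negative Ct, raw and centred on the common miRNAs. An assay was tested in a contrast if either group had it detected throughout, and p-values were Benjamini-Hochberg adjusted over all assays tested. Fits scaled to a single control were made per card. Pairs of controls and card shifts were tested with exact permutation tests of the between-group share of the variance (Python 3.11.15, numpy 2.4.6, pandas 2.3.3). The p-value is the share of divisions with a between-group share at least as large as that observed. Figures were drawn with matplotlib 3.10.9. The scripts were tested on simulated data.

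The replicate numbers pair no samples. The correlation of same-numbered deviations from the group means, on the centred scale, ranged from -0.46 to 0.33 over 18 pairs of runs. The members, the list of reference miRNAs, the rule for named miRNAs (the 3 assays most like each control, the 5 of smallest SD on each card and that list) and the markers were chosen with earlier results of these data known. Gene positions came from a RefSeq table of GRCm38.p6. Of 28 miRNA names looked up, 5 matched a RefSeq mature name and 4 more matched through the arm.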

Additional observations from a re-analysis of the deposited data

Results flagged for a closer look

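In 5 comparisons a control RNA lay on opposite sides of CT-BM in different lines, with every replicate of a line above or below every CT-BM replicate, and the lines differed by the limma test. They were picked by this rule from the 10 combinations, on raw Ct and relative to the common miRNAs. The share over all assays was not computed. The rule itself sets the lines apart, so the p-values between them add no support. On raw Ct, MammU6 was higher in M1 and lower in PYS than in CT-BM. The PYS differences from CT-BM, -0.57 cycles on card A and -0.78 on card B, were not called. On card A the nearest replicates were at 10.55 in PYS and 10.53 in CT-BM. The lines differed by 2.74 cycles on card A (limma adjusted p = 1.97e-05) and by 1.56 cycles on card B (limma adjusted p = 0.00188). Without the 2 earliest wells of M1 replicate 2 the card A difference was -2.23 cycles, PYS minus M1, and stayed called. On card A the common miRNAs were also earlier in M1, with a mean Ct of 20.9 against 22.7 in PYS, and relative to them PYS minus M1 was -0.98 cycles, not called.

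Relative to the common miRNAs, snoRNA429 on card B was above CT-BM in L-1210 and below it in PYS, and these lines differed by 1.12 cycles (limma adjusted p = 0.000168). It was above CT-BM in M1 as well, which differed from PYS by 0.95 cycles (limma adjusted p = 0.000558, under the minimum of 1 cycle). The call between L-1210 and PYS was lost without L-1210 replicate 3 (-0.98), with quantile normalization (-0.37) and with the 3 design controls (-0.29), all given as PYS minus L-1210. On the same scale, U87 on card A was above CT-BM in PYS and below it in M1, a difference of 1.75 cycles (limma adjusted p = 4.61e-06). Quantile normalization reduced it to 0.56 cycles, not called.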

How the results depend on the processing

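All 20 pairs differed among groups with each replicate left out, with the median of repeat wells and, chosen after seeing the data, without the 2 earliest MammU6 wells of M1 replicate 2. Without those wells the card shift of MammU6 had adjusted p = 0.26, and with each replicate left out 0.0122 to 0.282 (exact permutation test). Counts below include Y1 on card B. Raw counts of called combinations moved by over 1.5 times only with a replicate left out: L-1210 against M1 ranged from 2 to 5, and PYS against L-1210 from 2 to 4. Relative to the common miRNAs, M1 against CT-BM ranged from 2 to 4, was 1 with detection in all 12 replicates and 5 with the median. L-1210 against M1 was 5 with the median. PYS against L-1210 was 1 with quantile normalization and 5 with the median, and PYS against M1 was 2 with quantile normalization. Without the minimum of 1 cycle, M1 against CT-BM had 8 calls, L-1210 against M1 7, PYS against L-1210 6 and PYS against M1 9. Centring on the median moved the SD of U87 on card B to 0.495 and of snoRNA429 to 0.749. One called difference changed sign, that of snoRNA202 on card B in PYS against L-1210, 0.00108 under quantile normalization. Of the 66 differences relative to the common miRNAs, 20 that were called under neither setting also changed sign under another scaling, 8 of them against CT-BM, with sizes up to 0.80 cycles. The causes were not tested.

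The replicate number as a block changed 0 of 132 single calls and 0 counts by over 1.5 times. With the replicate block, 7, 10 and 9 raw calls stood against CT-BM in L-1210, M1 and PYS. Card A had 1 well per snoRNA, so its well spread could not be measured, and assays that amplify with different efficiency distort the cycle scale.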
